A study of Homo sapiens with 30 samples.

Results

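Aminoacyl-tRNA synthetases are the enzymes that join each amino acid to its transfer RNA (tRNA), the step that supplies the ribosome with charged tRNAs. Their genes were picked by symbol, 1 letter for the amino acid followed by ARS, with EPRS1 and the phenylalanine subunits FARSA and FARSB. Of the 60617 genes listed, 37 met this rule with a count above 0 in at least 1 library. By their symbols, 20 encode cytosolic enzymes and 17, ending in 2, encode mitochondrial ones. All 37 were protein-coding and passed the filter on low counts in each fit, with 59 (PARS2) to 14125 reads per gene and library.

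The libraries come from HCT116 and SW480, established human colorectal cancer cell lines. Each line was transfected for 48 h with 10 nM of a control small interfering RNA (siControl), of an siRNA that targets BRD8 (siBRD8-6 or siBRD8-36) or of one that targets TIP60 (siTIP60-2 or siTIP60-11), with 3 libraries per group, 30 in all. TIP60, the product of KAT5, is a histone acetyltransferase, and BRD8 is a bromodomain protein of the same TIP60-EP400 complex, so the comparisons ask what the loss of either subunit did to gene expression. Both lines grew with 10% fetal serum, HCT116 in McCoy's 5A and SW480 in Leibovitz's L-15 medium, so line and medium cannot be told apart. Whether replicates came from separate cultures is not in the labels, so p-values measure the spread between these libraries, which may be technical.

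Cytosolic and mitochondrial protein synthesis use separate sets of synthetases, nearly all encoded by separate nuclear genes. GARS1 and KARS1 are exceptions that encode both forms of their enzyme, and no mitochondrial glutaminyl enzyme exists: EARS2 mischarges the glutamine tRNA and the GatCAB amidotransferase corrects it. In the cytosol, 8 of the enzymes, EPRS1, IARS1, LARS1, MARS1, QARS1, RARS1 and KARS1 among them, sit in a multi-synthetase complex held by the scaffolds AIMP1, AIMP2 and EEF1E1. Many cytosolic synthetase genes are known targets of ATF4, the transcription factor of the amino acid and integrated stress responses, and 12 are listed here as such: AARS1, CARS1, EPRS1, GARS1, IARS1, LARS1, MARS1, NARS1, SARS1, TARS1, WARS1 and YARS1.

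ATF4 binds, with C/EBP partners, a composite element whose core was searched for as TGATGNAA on either strand of the RefSeq promoter windows (GRCh38.p14, 250 bases before to 50 after a start site). Of the 37 genes, 30 had a window, and AARS2, LARS1, VARS1, VARS2 and YARS1 were among those with none. The motif was present in 3.62% of all 35116 windows, in 7 of 21 windows (33.3%) of the cytosolic genes and in 1 of 18 (5.56%) of the mitochondrial ones. The 7 cytosolic genes that held it (AARS1, CARS1, GARS1, IARS1, MARS1, NARS1, TARS1) were all on the ATF4 list, of which 10 genes had a window. Stretches of 30 bases around the 8 matches are shown, 5′ to 3′ on the gene's strand with the motif in capitals, because 7 of these 8 genes fell in HCT116 TIP60 depletion, where YARS2 rose. In that order of symbols, they were AARS1 at chr16:70289675-70289704 (minus strand, motif at -187), CARS1 at chr11:3057407-3057436 (minus strand, motif at -2), GARS1 at chr7:30594834-30594863 (plus strand, motif at -33) and IARS1 at chr9:92293692-92293721 (minus strand, motif at -13). The others were MARS1 at chr12:57488053-57488082 (plus strand, motif at -4), NARS1 at chr18:57621804-57621833 (minus strand, motif at 15), TARS1 at chr5:33440956-33440985 (plus strand, motif at 3) and YARS2 at chr12:32756076-32756105 (minus strand, motif at -197), with positions counted from the first transcribed base as 1 and the base before it as -1.
AARS1: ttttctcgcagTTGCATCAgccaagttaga
CARS1: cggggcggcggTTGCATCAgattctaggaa
GARS1: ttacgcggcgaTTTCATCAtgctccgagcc
IARS1: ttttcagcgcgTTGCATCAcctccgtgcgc
MARS1: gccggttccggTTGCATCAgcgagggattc
NARS1: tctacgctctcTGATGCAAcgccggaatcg
TARS1: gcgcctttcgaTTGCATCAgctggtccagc
YARS2: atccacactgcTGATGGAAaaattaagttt
In 6 of the 7 cytosolic matches the letters were TTGCATCA or its reverse complement TGATGCAA, and GARS1 had TTTCATCA. A match is a description of the letters and does not show that ATF4 bound there in these cells.

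Library totals were 13416290 to 18601865 estimated counts in HCT116 and 7069596 to 11697941 in SW480. Levels across libraries are given as CPM, counts per 1000000 reads with edgeR's TMM scaling within a line, and levels between genes as the deposited TPM, which is per transcript length. BRD8 fell to 20.8% and 14.2% of its control level with siBRD8-6 and siBRD8-36 in HCT116, and to 24.5% and 21.2% in SW480. KAT5 fell to 7.36% and 9.91% of control with siTIP60-2 and siTIP60-11 in HCT116, and to 8.0% and 13.6% in SW480. With siBRD8-36, KAT5 was itself at 80.5% of control in HCT116 and 75.0% in SW480. All 6 epithelial markers were detected (summed TPM 2502 to 5077 in HCT116, where VIL1 was at 0 to 0.43, and 2644 to 4504 in SW480). Fibroblast markers summed to at most 29.2 TPM, nearly all COL1A1 in HCT116, with DCN, COL1A2 and COL3A1 at 0 in SW480, and leukocyte markers to at most 3.63, with PTPRC at 0 in SW480. By GENCODE 29, 13 of the 37 genes overlap another coding gene, among them HARS1 with HARS2, KARS1 with TERF2IP, WARS1 with WDR25, YARS1 with S100PBP, EARS2 with UBFD1, SARS2 with MRPS12 and YARS2 with DNM1L on opposite strands. Their values are uncertain to the extent that reads were counted without strand, and that setting is not given in the sources used here.

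In control cells, cytosolic synthetase transcripts far outnumbered mitochondrial ones in both lines. The 20 cytosolic genes summed to 4882 ± 359 TPM (SD, n = 3) in HCT116 and 3968 ± 49.1 in SW480, and the 17 mitochondrial genes to 402 ± 43.2 and 332 ± 5.56, a ratio of 12.2 in HCT116 and 11.95 in SW480. SARS1 (502 ± 9.70 TPM), MARS1 (483 ± 19.1) and TARS1 (435 ± 27.3), which charge serine, methionine and threonine tRNAs, led in HCT116. SARS1 and MARS1 differed by no more than 1 SD of MARS1. In SW480 the order was GARS1 (581 ± 22.3), MARS1 (557 ± 19.0) and SARS1 (425 ± 10.4), with WARS1 at 399 ± 33.6. FARSB, the beta subunit of the phenylalanyl enzyme, was the lowest cytosolic gene by TPM in both lines, at 25.5 ± 2.41 and 14.8 ± 0.422. Its partner subunit FARSA stood at 114 ± 4.01 and 59.5 ± 4.72 TPM. Over the 30 libraries their reads spanned similar ranges, 572 to 2975 for FARSB and 481 to 3051 for FARSA. The gap in TPM therefore depends on the transcript lengths used. Among mitochondrial genes IARS2 was highest, at 94.4 ± 12.7 in HCT116 and 51.3 ± 3.76 in SW480, and AARS2 lowest, at 4.94 ± 0.741 and 2.91 ± 0.388. In HCT116, AARS2, WARS2 (5.10 ± 1.08), FARS2 (7.12 ± 0.282) and PARS2 (7.36 ± 1.04) formed the bottom of the range, and AARS2 and WARS2 did not differ beyond their spread.

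**Figure D1:**
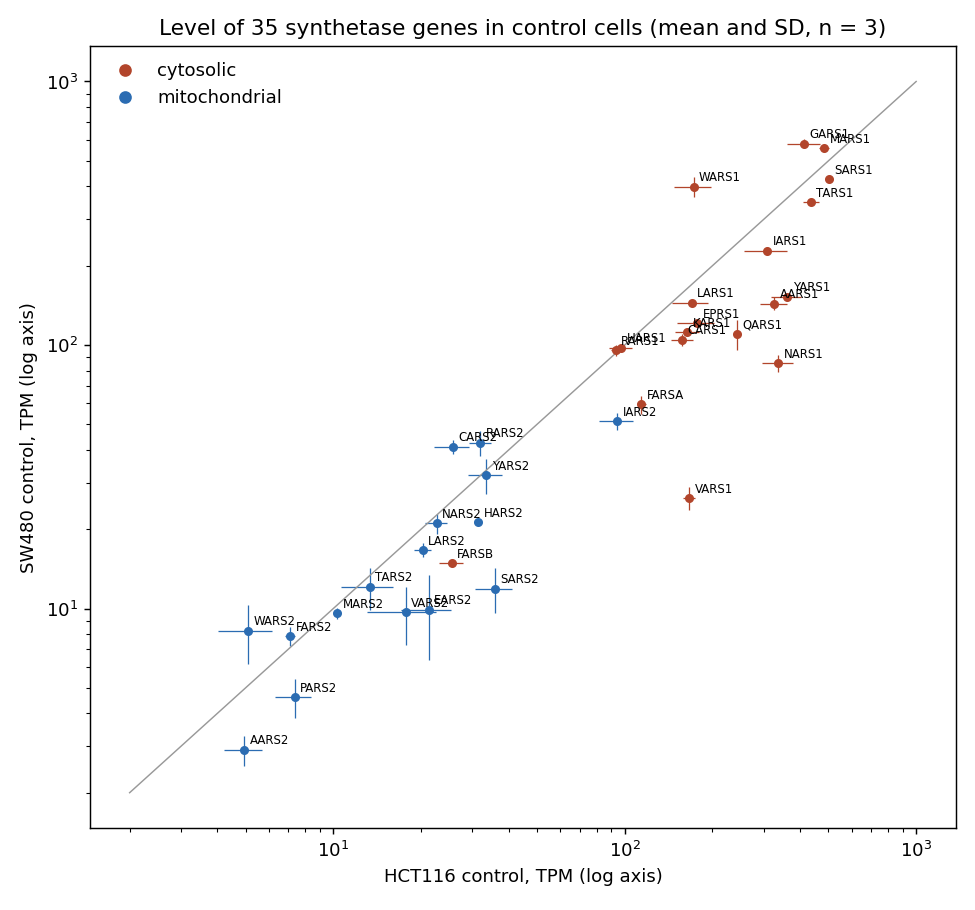
Mean TPM of 35 synthetase genes in control HCT116 (x axis) and control SW480 cells (y axis), both on log axes, with SD over 3 libraries and the line of equal levels. Cytosolic genes (red) span 25.5 to 502 TPM in HCT116 and mitochondrial ones (blue) 4.94 to 94.4, and VARS1 (166 TPM in HCT116, 26.3 in SW480) lies farthest below the line.

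The control lines themselves differed at many synthetase genes. By edgeR's quasi-likelihood test with Benjamini-Hochberg adjustment over all 17411 genes, 13 synthetase genes were higher in SW480 than in HCT116 and 18 were lower, where 78.5% of all genes were called (37% higher, 41.6% lower). VARS1, the valyl enzyme, differed most: its CPM within each line's scaling was 347, 354 and 371 in HCT116 and 66.5, 56.8 and 67.8 in SW480, a log2 difference of -2.59 ± 0.0648 (adjusted p = 2.35e-27). NARS1 (-1.59 ± 0.0588) and the mitochondrial seryl gene SARS2 (-1.38 ± 0.0962) were also lower in SW480. WARS1, the tryptophanyl enzyme, was higher there, at 1.49 ± 0.0570 (adjusted p = 3.77e-22), as was CARS2 (1.01 ± 0.0743). With limma on log2(TPM + 1), which shifts the median of all genes to -0.25 from -0.08, the split was 8 higher and 22 lower.

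In HCT116, depletion of BRD8 lowered 9 cytosolic synthetase genes and raised 3, and raised 5 mitochondrial genes with none lower. A gene counted as changed when both siRNAs moved it the same way and the larger of the 2 p-values, adjusted over all 15919 genes, was below 0.05 (edgeR's quasi-likelihood test). By this rule 24.4% of all genes were called, 12.2% higher and 12.2% lower. Each size is a log2 fold change averaged over both siRNAs, ± SE. The median over the 20 cytosolic genes was -0.23, over the 17 mitochondrial genes 0.15 and over all genes -0.02. In 9 cytosolic genes all 6 depleted libraries lay below the controls and in 4 above, and in 5 mitochondrial genes above, where 29.2% of all genes did not overlap in either direction. In these bulk libraries, fewer expressing cells and less RNA per cell cannot be told apart.

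SARS1, the seryl enzyme, fell most. Its control libraries read 500.1, 557 and 491 CPM, those with siBRD8-6 275, 271 and 280.3, and those with siBRD8-36 261, 296 and 275. All 6 depleted libraries lay below all 3 controls, at means of 53.3% and 53.8% of control, with a log2 change of -0.90 ± 0.0555 (adjusted p = 8.66e-09). MARS1, the methionyl enzyme of the complex, read 448, 455 and 455 CPM in controls, 319, 327 and 342 with siBRD8-6 and 179.8, 178 and 187 with siBRD8-36. Here the siRNAs differed in strength, and the change was -0.89 ± 0.0381 (adjusted p = 2.86e-07). MARS1 overlaps ARHGAP9 and the stress gene DDIT3 on the opposite strand, and DDIT3 fell in all 4 depletions (by 1.76 here), so reads of the pair can be told apart only if the counting used strand.

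AARS1, which charges alanine tRNA, fell by 0.81 ± 0.0518 (adjusted p = 7.90e-07), from 634, 639.7 and 689 CPM to 443, 427 and 448 (siBRD8-6) and 299.6, 321 and 327 (siBRD8-36). WARS1, also known as an interferon-induced gene, changed by -0.74 ± 0.0498 (adjusted p = 5.52e-08), and its libraries with siBRD8-6 (126, 133 and 134) and siBRD8-36 (146, 131 and 143) were alike and below the controls (205, 229 and 242). CARS1 (-0.75), YARS1 (-0.71), NARS1 (-0.68), IARS1 (-0.61) and GARS1 (-0.59) completed the 9 that fell. TARS1 was at -0.02 and -0.73 with the 2 siRNAs and was not called, nor were LARS1 (-0.02) and the bifunctional EPRS1 (-0.01).

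The 3 cytosolic genes that rose were smaller changes. VARS1 rose by 0.35 ± 0.0399 (adjusted p = 0.000109), HARS1, the histidyl enzyme, by 0.31 ± 0.0375 (adjusted p = 3.11e-05) and FARSB by 0.30 ± 0.0402 (adjusted p = 0.000829). HARS1 read 118, 117 and 122 CPM in controls, 143, 149 and 146 with siBRD8-6 and 149, 149 and 148 with siBRD8-36, with no overlap. HARS1 and HARS2 are neighbours on opposite strands that overlap, and HARS2 was also called higher (0.27 ± 0.0617, adjusted p = 0.0265).

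Among mitochondrial genes, FARS2, the phenylalanyl enzyme, rose most at 0.82 ± 0.0877 (adjusted p = 0.00095), from 7.09, 8.51 and 7.30 CPM to 15.5, 18.5 and 16.6 with siBRD8-6 and 10.1, 10.8 and 11.2 with siBRD8-36. MARS2 rose from 19.8, 22.8 and 20.4 CPM to 34.4, 31.8 and 31.9 (siBRD8-6) and 35.6, 27.1 and 32.4 (siBRD8-36), a change of 0.62 ± 0.0812 (adjusted p = 4.87e-05). PARS2, the prolyl enzyme, rose by 0.47 ± 0.0977 (adjusted p = 0.0117) and LARS2, the leucyl enzyme, by 0.37 ± 0.0472 (adjusted p = 0.000283). Every depleted library was above every control for these 4 genes. The calls are less firm than the cytosolic ones: without HCT116 control replicate 1 the number of mitochondrial genes called was 3, PARS2 being lost there (adjusted p = 0.0844) and without siBRD8-36 replicate 3 (0.0662). By limma on log2(TPM + 1), 3 were called, and LARS2 was at 0.28 with an adjusted p of 0.149.

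**Figure D2:**
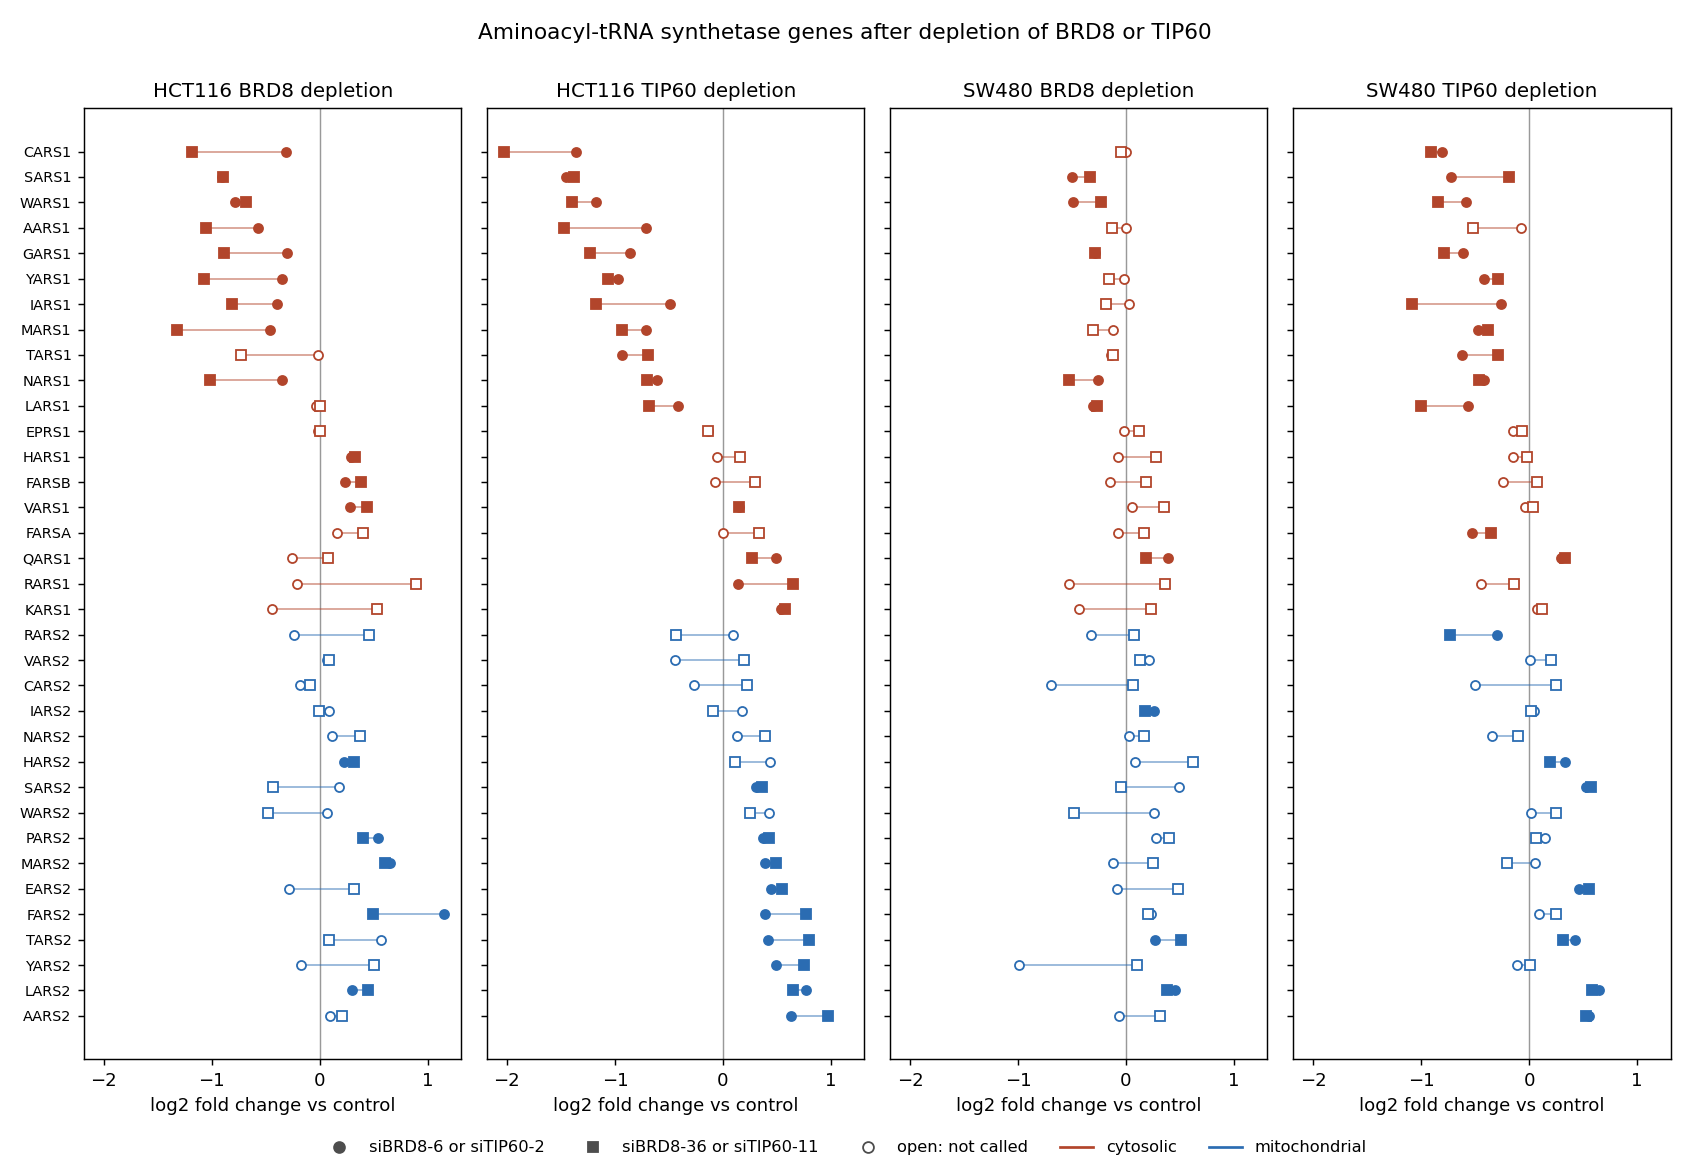
Log2 fold change against control of 35 synthetase genes (rows) in the 4 depletions (panels), with a circle and a square for the 2 siRNAs of a target, filled where the gene was called. Cytosolic genes (red) extend to the left, down to -2.02 for CARS1 with siTIP60-11 in HCT116, and mitochondrial genes (blue) have medians over all 17 of 0.13 to 0.40; on TPM the SW480 BRD8 panel shifts right, to a cytosolic median of 0.20.

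After TIP60 depletion in HCT116, 25 synthetase genes were called, against 17 after BRD8 depletion. Of the cytosolic genes 11 fell and 4 rose, and of the mitochondrial genes 10 rose and none fell, where 27.9% of all genes were called (13.7% higher, 14.1% lower). The medians were -0.60 for cytosolic, 0.40 for mitochondrial and -0.03 for all genes. In 11 cytosolic genes all 6 depleted libraries lay below all controls and in 4 above, and in 10 mitochondrial genes above (NARS2 among them, PARS2 not), where 33.5% of all genes did not overlap in either direction.

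CARS1, the cysteinyl enzyme at chr11:3000922-3057613 (GENCODE 29, GRCh38), fell most. It read 246, 256 and 256 CPM in controls, 91.1, 107 and 97.9 with siTIP60-2 and 60.3, 64.1 and 62.0 with siTIP60-11. The change was -1.69 ± 0.0494 (adjusted p = 6.46e-12), and the siTIP60-11 libraries were the lowest of the 15. SARS1 fell by 1.41 ± 0.0553 (adjusted p = 2.63e-11), to 178, 204 and 186 (siTIP60-2) and 193, 215 and 187 (siTIP60-11) CPM. WARS1 fell to 99.6, 99.8 and 99.7 with siTIP60-2 and 83.2, 89.1 and 83.6 with siTIP60-11, a change of -1.29 ± 0.0499 (adjusted p = 4.00e-11). YARS1, the tyrosyl enzyme, fell from 466, 502 and 509.6 CPM to 237, 266 and 249 (siTIP60-2) and 231, 240.1 and 235 (siTIP60-11), a change of -1.02 ± 0.0436 (adjusted p = 7.89e-11) of nearly equal size with both siRNAs (-0.97 and -1.06). The other genes that fell were AARS1 (-1.09), GARS1 (-1.04), IARS1 (-0.83), MARS1 (-0.82), TARS1 (-0.82), NARS1 (-0.66) and LARS1 (-0.55).

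KARS1, the lysyl enzyme of the complex that also serves mitochondria, rose. Its controls read 187, 209 and 210.1 CPM, siTIP60-2 libraries 283, 296 and 302 and siTIP60-11 libraries 289, 307 and 308, a change of 0.56 ± 0.0508 (adjusted p = 6.08e-07). QARS1, the glutaminyl enzyme, rose by 0.38 ± 0.0420 (adjusted p = 0.000202), from 209.9, 227 and 205 to 293, 308 and 301 (siTIP60-2) and 256, 265 and 253 (siTIP60-11) CPM. RARS1 (0.39 ± 0.0441, adjusted p = 0.0399) and VARS1 (0.15 ± 0.0397, adjusted p = 0.0215) were near the threshold. RARS1 was no longer called when any 1 of 8 of the 9 libraries was left out, all but control replicate 2 (adjusted p 0.053 to 0.145). VARS1 was not called without control replicate 1, siTIP60-2 replicate 2 or 3, or siTIP60-11 replicate 1 or 3 (0.0574 to 0.0814).

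Of the mitochondrial genes, AARS2 rose most, at 0.80 ± 0.0677 (adjusted p = 3.38e-06), from 17.0, 14.8 and 14.2 CPM to 24.3, 22.7 and 24.3 (siTIP60-2) and 30.3, 30.2 and 30.1 (siTIP60-11). LARS2 (chr3:45388506-45549421) rose by 0.71 ± 0.0472 (adjusted p = 2.52e-08), from 47.6, 44.3 and 48.1 to 78.3, 77.0 and 83.2 (siTIP60-2) and 71.2, 74.7 and 73.6 (siTIP60-11). Mutations of AARS2 are a known cause of leukoencephalopathy, and those of LARS2 of Perrault syndrome. YARS2 (0.62 ± 0.0539), TARS2 (0.61 ± 0.0685), FARS2 (0.58 ± 0.0884), EARS2 (0.50 ± 0.0627), MARS2 (0.44 ± 0.0818), PARS2 (0.40 ± 0.0981) and SARS2 (0.33 ± 0.0674) also rose. IARS2, the most abundant mitochondrial synthetase transcript, was at 0.18 and -0.09 with the 2 siRNAs and was not called. On TPM 6 of the 10 were called, and YARS2, at 0.49, had an adjusted p of 0.0879.

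**Figure D3:**
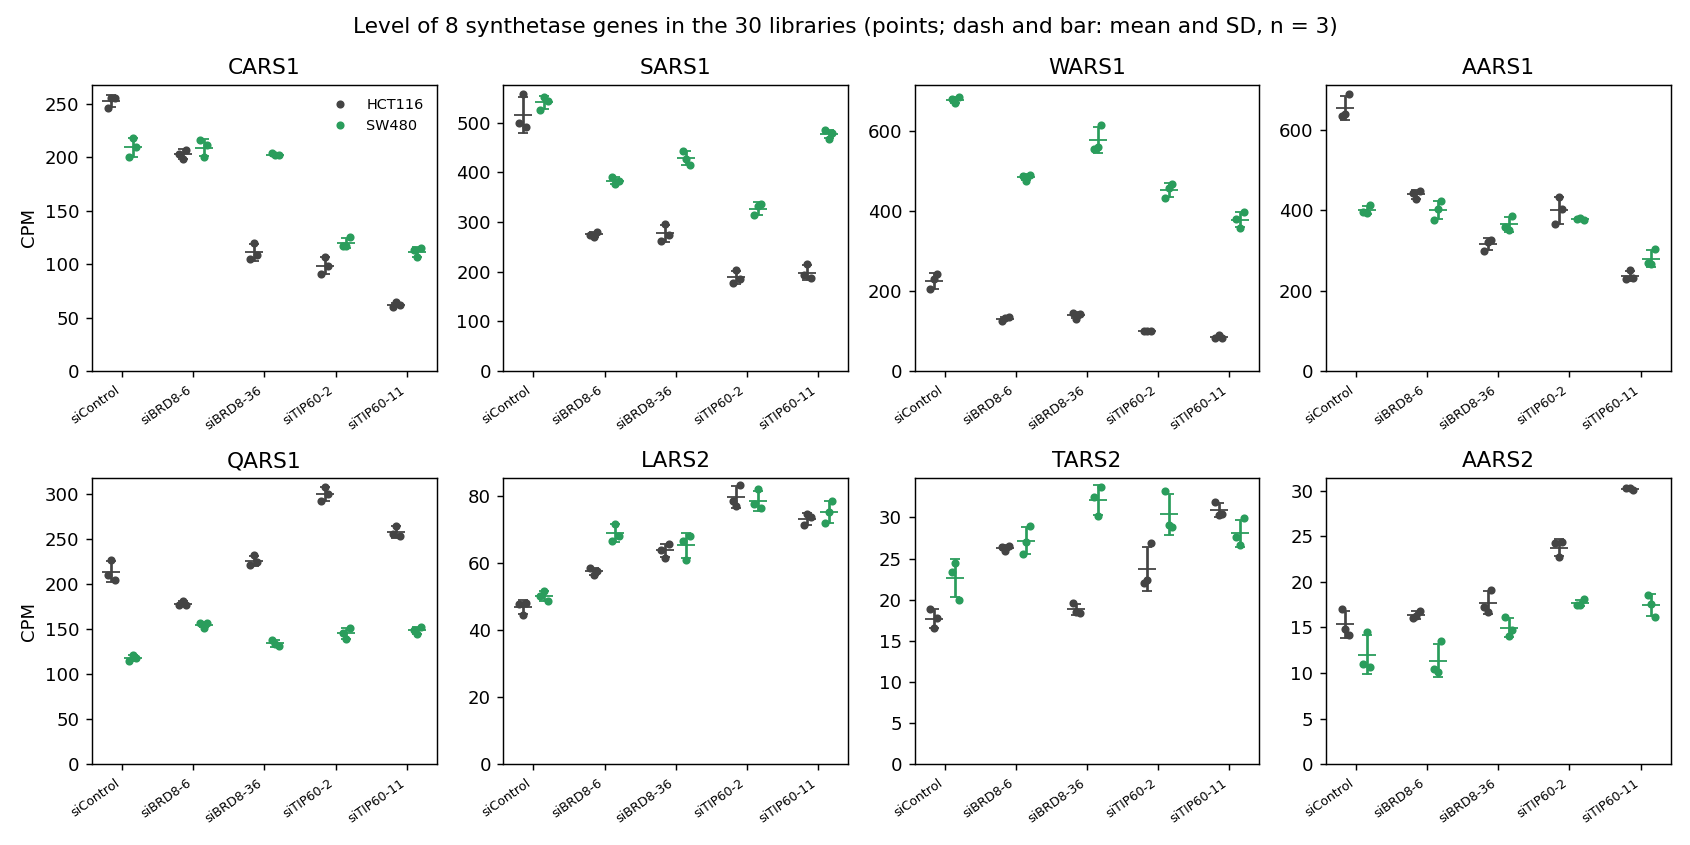
CPM of 8 synthetase genes in the 30 libraries (points, with mean and SD of 3) by siRNA, HCT116 in grey and SW480 in green, axes from 0; CPM is scaled within a line, so heights compare libraries of 1 line. CARS1, SARS1 and WARS1 are lower and LARS2 and AARS2 higher with TIP60 siRNAs in both lines, and AARS1 in SW480 overlaps control with the BRD8 siRNAs.

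In SW480, BRD8 depletion changed 9 of the 37 synthetase genes, a share near that of all genes, and the direction of the cytosolic set differed between scalings. On counts, 5 cytosolic genes fell and 1 rose and 3 mitochondrial genes rose, where 26.9% of all genes were called (12.9% higher, 14% lower). The medians were -0.08 for cytosolic, 0.17 for mitochondrial and 0.00 for all genes. The libraries did not overlap control in 7 cytosolic genes below and 1 above and in 4 mitochondrial genes above, where 35.2% of all genes did not. By limma on log2(TPM + 1) the median of all genes moved to 0.23 and the cytosolic median to 0.20, with 4 cytosolic genes higher (CARS1, HARS1, QARS1, VARS1) and none of the 5 still called lower. Relative to the all-gene median the cytosolic genes were at -0.03 on TPM and the mitochondrial ones at 0.20.

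SARS1 changed most of the 5. It read 527, 553 and 545 CPM in controls, 391, 377 and 384 with siBRD8-6 and 443, 428 and 415 with siBRD8-36, a change of -0.42 ± 0.0437 (adjusted p = 7.80e-06). On TPM it was at -0.20 with an adjusted p of 0.0728. NARS1, the asparaginyl enzyme, changed by -0.39 ± 0.0577 (adjusted p = 0.00401), WARS1 by -0.36 ± 0.0467 (adjusted p = 0.00162), LARS1 by -0.29 ± 0.0473 (adjusted p = 0.000352) and GARS1 by -0.29 ± 0.0458 (adjusted p = 0.000142). On TPM these stood at -0.17 for NARS1, -0.07 for WARS1, 0.013 for LARS1 and -0.06 for GARS1. QARS1 rose by 0.29 ± 0.0484 (adjusted p = 0.012), from 115, 122 and 118 to 157, 152 and 156 (siBRD8-6) and 138, 133 and 131 (siBRD8-36) CPM. It was not called without control replicate 1 (adjusted p = 0.0615) or siBRD8-36 replicate 1 (0.0525).

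LARS2 rose by 0.42 ± 0.0609 (adjusted p = 8.57e-05), from 49.98, 51.6 and 48.6 CPM to 66.5, 71.7 and 68.0 (siBRD8-6) and 66.6, 60.9 and 67.9 (siBRD8-36), and was called on TPM too. TARS2 (0.39 ± 0.0843, adjusted p = 0.0372) and IARS2 (0.22 ± 0.0489, adjusted p = 0.0156) rose less firmly. TARS2 lost its call in 4 of the 9 fits that left out a library (control replicates 1 and 3, siBRD8-6 replicates 2 and 3; adjusted p 0.0656 to 0.238) and with the replicate number as a block (0.0514). IARS2 lost it without control replicate 2 (0.12) or 3 (0.0699). YARS2 was among those the siRNAs moved apart, at -0.99 and 0.10, and was not called.

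TIP60 depletion in SW480 lowered 12 cytosolic synthetase genes and raised 1, and raised 7 mitochondrial genes and lowered 1, where 23.6% of all genes were called (11.5% higher, 12.1% lower). The cytosolic median was -0.42, the mitochondrial 0.13 and that of all genes 0.01. All 6 depleted libraries lay below the controls in 14 cytosolic genes and above in QARS1 and 7 mitochondrial genes, where 34.3% of all genes did not overlap. On the scale of log2(TPM + 1), where the median of all genes was 0.18, 5 cytosolic genes were lower (CARS1, GARS1, MARS1, TARS1, WARS1) and 2 higher, the cytosolic median was -0.20 and 5 mitochondrial genes were higher.

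CARS1 again fell most, from 200.3, 218 and 209.9 CPM to 117, 117 and 126 with siTIP60-2 and 113, 107 and 115 with siTIP60-11, a change of -0.86 ± 0.0475 (adjusted p = 2.18e-11). LARS1, the leucyl enzyme known also as a leucine sensor, changed by -0.79 ± 0.0470 (adjusted p = 1.09e-08), and more with siTIP60-11 (167, 159 and 154 CPM) than with siTIP60-2 (221, 210.3 and 216) against 319.5, 318 and 322 in controls. On TPM it was at -0.46 and not called (adjusted p = 0.195). WARS1 fell from 679.7, 671 and 685 to 434, 458 and 467 (siTIP60-2) and 381, 358 and 398 (siTIP60-11) CPM, a change of -0.71 ± 0.0464 (adjusted p = 5.63e-09). GARS1, the most abundant of the set in SW480, fell from 972, 972 and 978 to 645, 641 and 621 (siTIP60-2) and 563, 539.9 and 595 (siTIP60-11) CPM, by 0.70 ± 0.0454 (adjusted p = 1.43e-09). IARS1 (-0.67), TARS1 (-0.45), SARS1 (-0.45), FARSA (-0.44), NARS1 (-0.44), MARS1 (-0.42) and YARS1 (-0.35) also fell on counts. AARS1 was at -0.08 and -0.52 with the 2 siRNAs and was not called.

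QARS1 was the cytosolic gene that rose, by 0.31 ± 0.0485 (adjusted p = 0.000152), from 115, 122 and 118 CPM to 146, 139 and 151 (siTIP60-2) and 149, 145 and 152 (siTIP60-11). LARS2 rose by 0.62 ± 0.0607 (adjusted p = 2.06e-07), from 49.98, 51.6 and 48.6 to 77.4, 81.9 and 76.2 (siTIP60-2) and 71.8, 75.2 and 78.5 (siTIP60-11) CPM. SARS2 rose by 0.55 ± 0.0964 (adjusted p = 0.000473), AARS2 by 0.54 ± 0.115 (adjusted p = 0.00249) and EARS2, the glutamyl enzyme, by 0.50 ± 0.0929 (adjusted p = 0.0015). TARS2 (0.37) and HARS2 (0.26) rose too, and all libraries of these 6 genes lay above the controls. RARS2, the arginyl enzyme, was the mitochondrial gene that fell, by 0.51 ± 0.0748 (adjusted p = 0.0107), although siTIP60-2 replicate 3 (67.8 CPM) was above control replicate 3 (64.1). Its call was lost without control replicate 1 (0.061) or 2 (0.0917) or siTIP60-2 replicate 1 (0.0825), and on TPM, where EARS2 was also lost (0.272).

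On counts, across the 4 depletions, GARS1, NARS1, SARS1 and WARS1 were called lower in all, LARS2 was called higher in all and QARS1 was higher in 3. On counts no synthetase gene was called in both directions, and EPRS1, CARS2, NARS2, VARS2 and WARS2 were called in none. On TPM the 4 falls were not called in SW480 BRD8 depletion, nor NARS1 and SARS1 in SW480 TIP60 depletion, nor GARS1 and the rise of LARS2 in HCT116 BRD8 depletion, while CARS1 was higher in SW480 BRD8 and lower in either TIP60 depletion and NARS2 was higher in SW480 BRD8 depletion. Between the lines, whose controls are separate, 10 cytosolic genes fell with TIP60 siRNAs in both, 90.9% of the 11 in HCT116 and 83.3% of the 12 in SW480, where 36.1% and 42.6% of all genes called lower were. Of the mitochondrial genes, 6 rose in both (AARS2, EARS2, LARS2, SARS2 and TARS2 among them), 60% of the HCT116 and 85.7% of the SW480 calls, where 34.4% and 43.5% of all genes called higher did. With BRD8 siRNAs, 4 cytosolic falls (44.4% and 80%) were shared, against 41.5% and 37.9% of all falls. Of the rises only that of LARS2 was shared, and no cytosolic rise was. It made up 20% and 33.3% of the mitochondrial rises, below the 36.7% and 36.9% of all rises that were shared. The 2 targets share their control libraries within a line, so their values are given side by side and not as an overlap.

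On counts the genes of the ATF4 list that were called all fell. The others of the cytosolic set that were called all rose in HCT116, and in SW480 TIP60 depletion 1 rose and 2 fell. Of the 12 listed genes 9, 11, 5 and 10 fell in HCT116 BRD8, HCT116 TIP60, SW480 BRD8 and SW480 TIP60 depletion, and none rose, with medians of -0.70, -0.93, -0.17 and -0.45. With limma on TPM 7, 11, 0 and 5 fell, and in SW480 BRD8 the median was 0.07 with CARS1 higher. Of the other 8 cytosolic genes (FARSA, FARSB, HARS1, KARS1, QARS1, RARS1 and VARS1 among them), 3, 4, 1 and 1 rose and 0, 0, 0 and 2 fell, with medians of 0.29, 0.16, 0.03 and -0.08, the last being 0.12 on TPM. In the same order, 12.2%, 14.1%, 14% and 12.1% of all genes were called lower and 12.2%, 13.7%, 12.9% and 11.5% higher. The 1 of 8 that rose in each SW480 depletion is near that share. In HCT116 TIP60 depletion 7 of the 9 cytosolic genes that fell and had a promoter window held the TGATGNAA motif shown above, 0 of the 3 that rose and 0 of the 4 not called. These are counts of genes, and a gene with more windows has more chances of a match. The genes that fell had 14 windows (50% with the motif), those that rose 3 and those not called 4. Of all 27305 genes with a window, 1217 held the motif. In HCT116 BRD8 depletion 6 of 8 that fell held it, in SW480 TIP60 depletion 6 of 9 and in SW480 BRD8 depletion 2 of 4, where 5 of the 11 not called also did. All 7 cytosolic genes with the motif are on the ATF4 list, so the motif counts are not separate from those of the list. That list was chosen with earlier results of these data known.

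**Figure D4:**
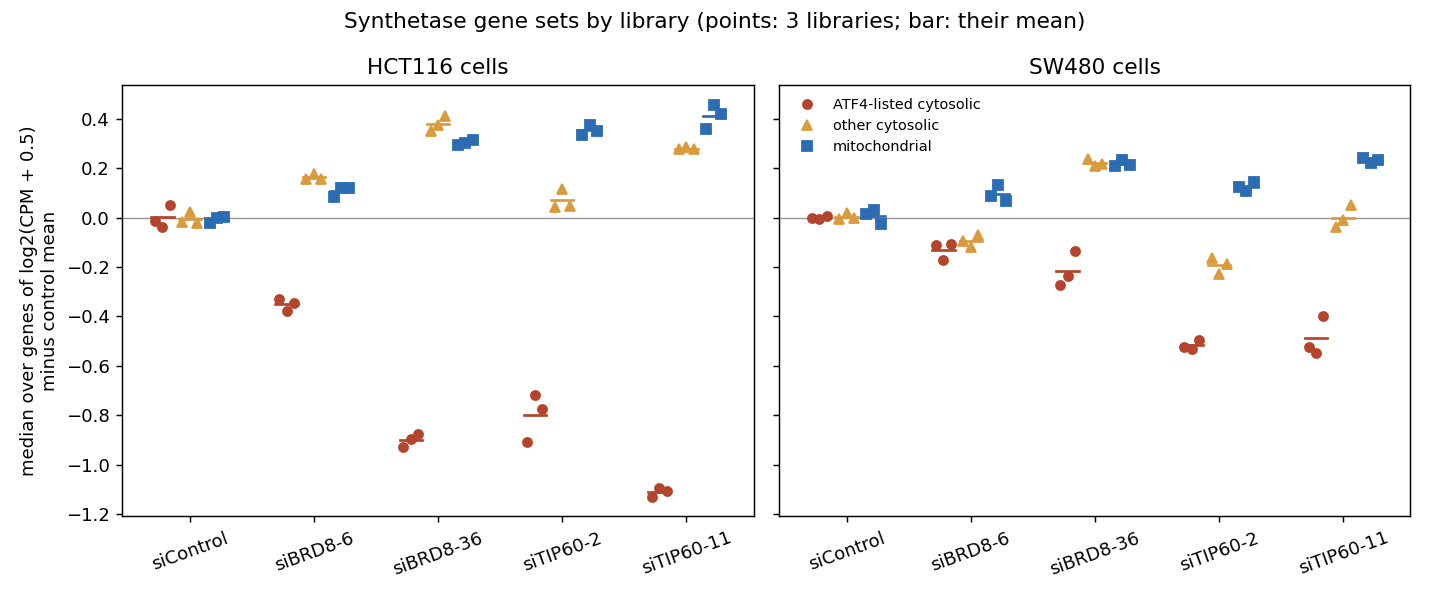
Median over the genes of a set of log2(CPM + 0.5) minus the control mean, per library (3 points and their mean per group), for ATF4-listed cytosolic (red), other cytosolic (orange) and mitochondrial genes (blue). In HCT116 the ATF4-listed set runs from a mean of -0.35 with siBRD8-6 to -1.11 with siTIP60-11, and in SW480 from -0.13 to -0.52; on TPM the SW480 BRD8 median of that set is 0.07.

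By library, the ATF4-listed median in HCT116 lay between -0.38 and -0.33 with siBRD8-6, -0.93 and -0.88 with siBRD8-36, -0.91 and -0.72 with siTIP60-2 and -1.13 and -1.10 with siTIP60-11, against -0.04 to 0.05 in controls. In SW480 it lay between -0.17 and -0.11, -0.27 and -0.13, -0.53 and -0.50, and -0.55 and -0.40 in the same order. No depleted library overlapped the controls of its line. The mitochondrial median was above control in every depleted library of both lines, at 0.09 to 0.46 in HCT116 and 0.07 to 0.24 in SW480.

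ATF4 mRNA itself was lower in most of these libraries. In HCT116 it read 763, 832 and 749 CPM in controls, 583, 587 and 595 with siBRD8-6, 237, 254 and 249 with siBRD8-36, 604, 667 and 621 with siTIP60-2 and 465, 490.4 and 444 with siTIP60-11. The changes were -1.04 ± 0.0469 (adjusted p = 1.37e-05) for BRD8 and -0.53 ± 0.0473 (adjusted p = 0.000244) for TIP60. Averaged over both siRNAs the targets differed (-0.51 ± 0.0397, adjusted p = 1.87e-09), but ATF4 stood at 75.3% of control with siBRD8-6, between siTIP60-2 (80.7%) and siTIP60-11 (59.7%), and at 31.6% with siBRD8-36. In SW480 ATF4 fell with BRD8 siRNAs (-0.39 ± 0.0450, adjusted p = 0.000273) and was not called with TIP60 siRNAs (-0.17 ± 0.0452, adjusted p = 0.0557). ATF4 is known to be controlled mainly by translation of its mRNA, and its protein was not measured.

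Other genes of the amino acid response that were called on counts also fell. Of a list of 13 (ATF4, ASNS, PHGDH, PSAT1, SHMT2, MTHFD2, PCK2, CHAC1, TRIB3, DDIT3, NUPR1, SESN2 and VLDLR), 12 were tested in HCT116, where 11 fell in either depletion (medians -1.76 and -1.50). In SW480 6 and 9 of 13 fell with BRD8 and TIP60 siRNAs (-0.39 and -0.47), and the rest were not called. These counts include ATF4 except in SW480 TIP60 depletion. On TPM the SW480 counts were 3 lower for BRD8 and 4 lower and 1 higher for TIP60. Of all genes, 12.2% and 14.1% were called lower on counts in HCT116 and 14% and 12.1% in SW480. ASNS, asparagine synthetase, fell by 2.13 and 2.47 in HCT116 and by 0.53 and 0.47 in SW480. DDIT3, the stress transcription factor CHOP, fell by 1.76, 2.14, 1.55 and 1.26. XPOT, the exportin that carries tRNA out of the nucleus, read 314, 291 and 332 CPM in HCT116 controls, 193, 188 and 207 (siBRD8-6) and 139.8, 125 and 132 (siBRD8-36) with the BRD8 siRNAs and 138, 139 and 139 (siTIP60-2) and 106, 104 and 103 (siTIP60-11) with the TIP60 siRNAs. Its changes were -0.96 and -1.38 in HCT116 and -0.63 with TIP60 siRNAs in SW480. Of the 7 genes listed for tRNA export, editing and release, XPOT included, 2, 1, 1 and 0 rose and 1, 1, 1 and 3 fell in the 4 depletions, against 24.4%, 27.9%, 26.9% and 23.6% of all genes called.

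Enzymes of the multi-synthetase complex were called in either direction. Of the 8, 0 rose and 2 fell in HCT116 BRD8 depletion (IARS1, MARS1), 3 rose (KARS1, QARS1, RARS1) and 3 fell (IARS1, LARS1, MARS1) in HCT116 TIP60 depletion, 1 rose (QARS1) and 1 fell (LARS1) in SW480 BRD8 depletion and 1 rose (QARS1) and 4 fell (IARS1, LARS1 and MARS1 among them) in SW480 TIP60 depletion. The 2 of 8 in each BRD8 depletion are near the share of all genes called (24.4% and 26.9%), and the 6 and 5 of 8 in TIP60 depletion compare with 27.9% and 23.6%. Subunits of 1 complex moved in opposite directions within the same libraries, as KARS1 (0.56) and MARS1 (-0.82) did in HCT116 with TIP60 siRNAs. Of the 3 scaffolds, none was called in HCT116 BRD8 depletion and AIMP1 rose by 0.32 ± 0.0484 (adjusted p = 0.024) in HCT116 TIP60 depletion, a call lost on TPM. EEF1E1 fell by 0.78 and 0.73 and AIMP2 by 0.63 and 0.59 in SW480 BRD8 and TIP60 depletion, with 1 of the 2 called lower on TPM for BRD8. Of the 12 cytosolic enzymes outside the complex, 3, 1, 0 and 0 rose and 7, 8, 4 and 8 fell on counts, while on TPM in SW480 BRD8 depletion 3 rose and none fell.

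Partners of the mitochondrial enzymes were called about as often as all genes. Of 13 (the GatCAB subunits, the methionyl-tRNA formyltransferase MTFMT and mitochondrial translation factors), 4 rose in HCT116 TIP60 depletion: GATB (0.65), GATC (0.45), MTIF2 (0.29) and TUFM (0.29). GATB and GATC are subunits of the amidotransferase that completes glutamine charging after EARS2, which rose in the same libraries. In HCT116 BRD8 depletion MTFMT rose (0.37) and GATC (-0.53) and MTRF1L (-0.38) fell. In SW480, GFM2 and MTRF1L fell with BRD8 siRNAs, and GATB rose while TSFM and GFM2 fell with TIP60 siRNAs; on TPM those SW480 counts were 4 higher and 0 lower for BRD8 and none for TIP60. On counts 3, 4, 2 and 3 of the 13 were called in the 4 depletions, against 24.4%, 27.9%, 26.9% and 23.6% of all genes, so no count stood above that share by more than 1 gene.

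Genes of class I and class II, the unrelated catalytic folds of these enzymes, both held genes that fell in the cytosolic set and rose in the mitochondrial set. In HCT116 TIP60 depletion 6 of 9 cytosolic class I and 5 of 10 cytosolic class II genes fell, and 4 of 9 mitochondrial class I and 6 of 8 mitochondrial class II genes rose. Of the cytosolic genes 3 of class I and 1 of class II rose there, where 14.1% of all genes were called lower and 13.7% higher. In SW480 TIP60 depletion 6 of 9 and 6 of 10 cytosolic genes fell on counts, and 2 of 9 and 5 of 8 mitochondrial genes rose. There 1 mitochondrial class I gene (RARS2) fell and 1 cytosolic class I gene (QARS1) rose, against 12.1% of all genes lower and 11.5% higher. In HCT116 BRD8 depletion 5 of 9 and 4 of 10 cytosolic genes fell, 1 and 2 rose, and 2 of 9 and 3 of 8 mitochondrial genes rose. In SW480 BRD8 depletion 2 of 9 and 3 of 10 cytosolic genes fell, 1 and 0 rose, and 2 of 9 and 1 of 8 mitochondrial genes rose. With BRD8 siRNAs, 12.2% of all genes were called lower and 12.2% higher in HCT116, and 14% and 12.9% in SW480. Counts of 1 or 2 genes are within about 1 gene of those shares. EPRS1, which holds an enzyme of either class, was left out of both.

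BRD8 and TIP60 depletion, each averaged over its siRNAs, differed at most synthetase genes when compared directly. In HCT116, 15 cytosolic genes were higher with BRD8 than with TIP60 siRNAs and 2 lower, and 4 mitochondrial genes were higher and 8 lower, where 61.8% of all genes were called (30% higher, 31.7% lower). SW480 gave 16 and 1 for the cytosolic and 4 and 8 for the mitochondrial genes, where 59.9% were called (29.7% higher, 30.2% lower). CARS1 had the largest difference in both lines, 0.94 ± 0.0428 (adjusted p = 1.10e-12) in HCT116 and 0.83 ± 0.0394 (adjusted p = 3.95e-16) in SW480. LARS1 followed the same order, 0.53 ± 0.0367 and 0.50 ± 0.0392, as did WARS1 in HCT116 (0.55 ± 0.0428) and IARS1 in SW480 (0.59 ± 0.0360). The SE and p-values of these averages cover the spread between libraries, not that between the siRNAs of a target. In HCT116, CARS1 stood at 80.4% and 43.95% of control with siBRD8-6 and siBRD8-36, and at 39.0% and 24.6% with siTIP60-2 and siTIP60-11. In the mitochondrial set, AARS2 (-0.65 ± 0.0530 in HCT116 and -0.42 ± 0.0859 in SW480) was lower with BRD8 siRNAs, as was WARS2 (-0.54 ± 0.0785) in HCT116. YARS2 in SW480 differed by -0.39 ± 0.0682 on average, but was at 50.7% of control with siBRD8-6 and 108% with siBRD8-36, against 92.8% and 101% with the TIP60 siRNAs.

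The 2 siRNAs of a target also differed from each other at many of these genes, as at many genes in all. Between siBRD8-36 and siBRD8-6 in HCT116, 12 synthetase genes were higher and 13 lower, where 56.7% of all genes were called (28.4% higher, 28.3% lower). RARS1 (1.10 ± 0.0503) and KARS1 (0.97 ± 0.0580) were higher and CARS1 (-0.87 ± 0.0590), MARS1 (-0.86 ± 0.0458) and YARS1 (-0.71 ± 0.0522) lower with siBRD8-36. KARS1 read 149, 147 and 149.6 CPM with siBRD8-6 and 288, 271 and 312 with siBRD8-36, on either side of the controls, and RARS1 106, 103 and 109.8 against 228, 239 and 218. In SW480 the same pair gave 18 higher and 8 lower (52.8% of all genes called, 25.9% higher and 27% lower). YARS2 (1.09 ± 0.0992), RARS1 (0.89 ± 0.0554) and CARS2 (0.76 ± 0.0738) were higher and WARS2 (-0.74 ± 0.109) and SARS2 (-0.54 ± 0.104) lower, so RARS1 differed the same way in both lines.

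Between siTIP60-11 and siTIP60-2, 13 synthetase genes were higher and 11 lower in HCT116 (46% of all genes called, 22.5% higher and 23.5% lower) and 7 and 7 in SW480 (45.4%, 21.9% and 23.4%). AARS1 (-0.76 ± 0.0623 and -0.44 ± 0.0591) and IARS1 (-0.68 ± 0.0557 and -0.82 ± 0.0513) were lower with siTIP60-11 in both lines. The mitochondrial valyl gene VARS2 (0.64 ± 0.0786) and the arginyl gene RARS1 (0.50 ± 0.0498) were higher and CARS1 (-0.67 ± 0.0618) lower in HCT116. The mitochondrial cysteinyl gene CARS2 (0.75 ± 0.0726) and SARS1 (0.54 ± 0.0513) were higher and LARS1 (-0.43 ± 0.0561) lower in SW480. Each of these 10 differences had an adjusted p of at most 1.95e-06.

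For most ATF4-listed genes the response to depletion was less negative in SW480 than in HCT116. The difference was tested as an interaction in a fit of all 30 libraries, SW480 minus HCT116, so a positive value is a smaller fall or a larger rise in SW480. For BRD8, 11 cytosolic genes were higher and 4 lower and 2 and 3 mitochondrial genes, where 34.4% of all genes were called (21.9% higher, 12.5% lower). For TIP60, 10 and 5 cytosolic and 0 and 5 mitochondrial genes were called, against 31.2% of all genes (18.1% and 13.1%). The median of all genes was itself at 0.10 and 0.06. Of the 12 ATF4-listed genes 10 were higher for either target, LARS1 was lower and EPRS1 was not called, with medians of 0.50 and 0.42. On TPM 11 were higher and none lower, where 82.7% (BRD8) and 81.5% (TIP60) of all genes called were higher. SARS1 differed most, 1.00 ± 0.0709 (adjusted p = 6.56e-13) for TIP60: it was at 36.6% and 38.4% of control in HCT116 with the TIP60 siRNAs and at 60.5% and 88.2% in SW480. CARS1 differed by 0.80 ± 0.0692 for BRD8 and 0.87 ± 0.0703 for TIP60 and AARS1 by 0.82 ± 0.0754 and 0.83 ± 0.0756, and MARS1 by 0.74 ± 0.0525 for BRD8. AARS1 in SW480 read 397, 392 and 412 CPM in controls and 376, 403 and 423 with siBRD8-6, which overlap. With siBRD8-36 it read 358, 352 and 386, all below the controls. In HCT116 all depleted libraries were below control.

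Differences in the other direction were found at YARS2 (-0.54 ± 0.0992 for BRD8 and -0.63 ± 0.0973 for TIP60), FARS2 (-0.54 ± 0.137) and MARS2 (-0.49 ± 0.113) for BRD8 and RARS1 (-0.65 ± 0.0629) and FARSA (-0.57 ± 0.0851) for TIP60. RARS1 was above control with TIP60 siRNAs in HCT116 and at -0.44 and -0.14 in SW480. In the TPM fit, where the all-gene median of the interaction was 0.20 for BRD8 and 0.18 for TIP60, 16 synthetase genes were higher and 0 lower for BRD8 and 12 and 3 for TIP60. Of all 17411 genes in that fit, 4917 were higher and 1025 lower for BRD8, and 4186 and 948 for TIP60. There SARS1, CARS1, AARS1, MARS1, RARS1 and FARSA were called in the same direction, and YARS2, FARS2 and MARS2 were not called.

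**Figure D5:**
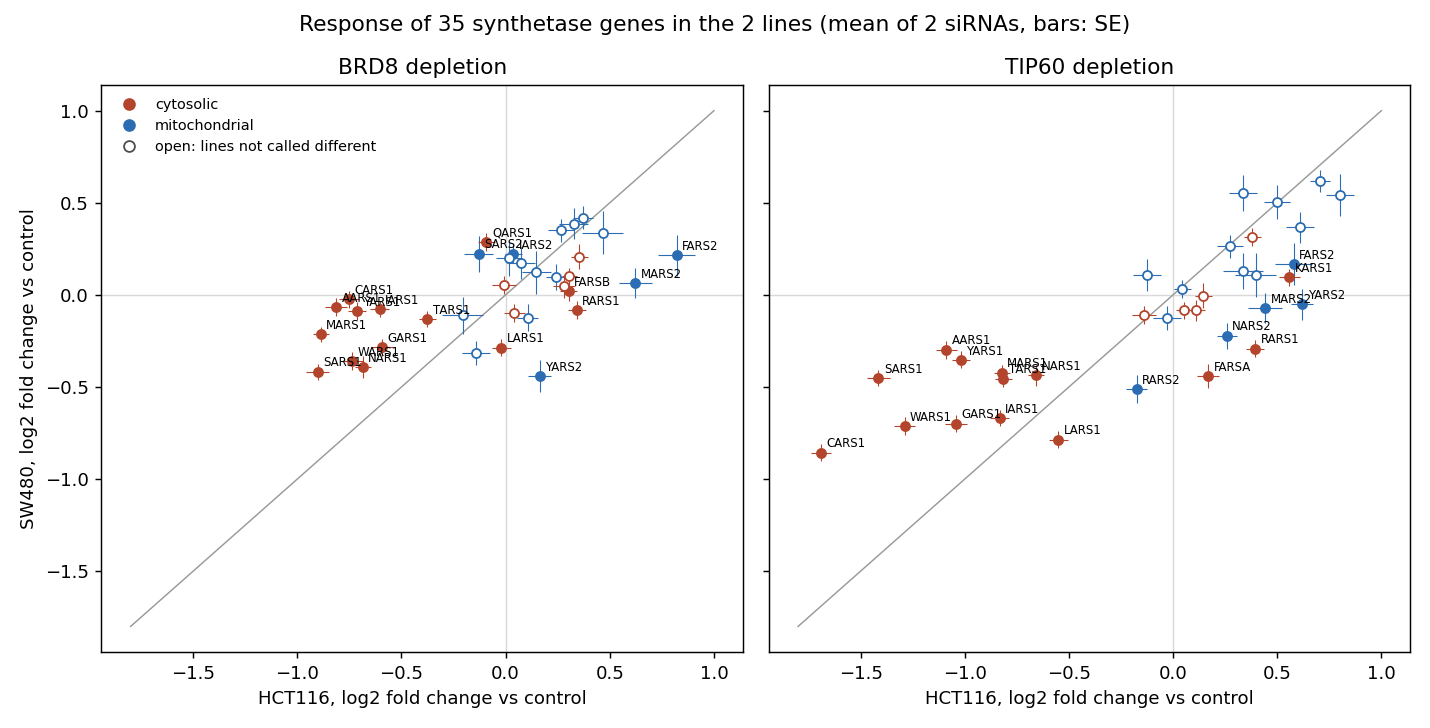
Log2 fold change against control in HCT116 (x axis) and SW480 (y axis) of 35 synthetase genes, with SE and the line of equal response. BRD8 depletion is left and TIP60 depletion right. Named, filled points differed between the lines on counts (19 in each panel). Of all synthetase genes, drawn or not, 7 were called lower in this difference on counts for BRD8 and 0 on TPM. For TIP60 these were 10 on counts and 3 on TPM. FARS2, MARS2 and YARS2 for BRD8 and YARS2 for TIP60 were among those not called on TPM. Cytosolic genes (red) at the left, such as SARS1 and AARS1, lie above the line.

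Summed over genes and weighted by abundance, the cytosolic set in HCT116 went from 4882 ± 359 TPM in controls (4475 to 5154) to 4033 ± 59.4 with siBRD8-6, 3429 ± 14.4 with siBRD8-36, 3349 ± 28.7 with siTIP60-2 and 3073 ± 48.8 with siTIP60-11, that is 82.6%, 70.2%, 68.6% and 63.0% of control. The mitochondrial set went from 402 to 440, 446, 479 and 474 TPM, so the ratio between the sets fell from 12.2 to 9.17, 7.69, 6.98 and 6.49. In SW480 the cytosolic sum was 104%, 106%, 87.0% and 81.9% of control and the mitochondrial sum 115%, 139%, 129% and 117%. The ratio there went from 11.95 to 10.9, 9.16, 8.08 and 8.35. Being taken within a library, this ratio does not depend on scaling between libraries. It was lower in every depleted library (6.33 to 9.38 in HCT116, 7.88 to 11.1 in SW480) than in every control of the same line (11.6 to 12.5 and 11.8 to 12.1). TPM are shares of a library: in SW480 the 10 most abundant genes held 9.80% to 11.4% of the TPM in controls and 7.59% to 8.99% after depletion. The part of this in the SW480 sums was not tested.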

How the data were processed

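RNA was sequenced in 30 libraries (100 ng total RNA, stranded kit, 60 bp single reads). Per the submitters' processing notes the tools were Trimmomatic 0.33, STAR 2.7.3a and RSEM 1.3.3 with hg38. Which annotation release and strand setting were used is not recorded in the labels. Per the file headers, the authors deposited RSEM's expected counts and TPM for each gene and library. TPM divides by effective length and total, so one gene's share depends on the others.

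Expected counts, of which 9.13% to 13.1% were not whole, were rounded and tested with edgeR 4.0.16 (R 4.3.3; TMM, filterByExpr, robust quasi-likelihood F test), each line alone with its 15 libraries, and with all 30 for the interaction and for control against control. P-values are Benjamini-Hochberg adjusted over all genes tested, at a threshold of 0.05, which also holds for the limma 3.58.1 fits on log2(TPM + 1). The call for a target takes the larger p of its 2 siRNAs and needs both to point the same way. Named genes are, per comparison, up to 4 called genes per direction and class for targets and up to 3 per direction elsewhere, with the largest changes. Genes named beyond that rule serve a list or were chosen after their values were seen. Values of 2 of the 37 genes are not reported singly here, and counts include them. Members and lists were chosen with earlier results of these data known. The alternatives were DESeq2 1.42.0, other filters, size factors, TPM with a pseudocount of 1 or 0.1, a replicate block, and leaving out each library. No pair of replicates matched within sampling noise (chi-square per gene 1.47 to 21.3 over 30 pairs). The highest values were those of HCT116 control replicate 2, 21.3 against replicate 3 and 15.9 against replicate 1, where replicates 1 and 3 gave 3.72. That library was also the shallowest of its line, at 13416290 counts. The edgeR steps were tested on simulated data. Gene coordinates are GENCODE 29 (58444 of 60617 identifiers matched), and promoter sequences are from RefSeq on GRCh38.p14.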

Additional observations from a re-analysis of the deposited data

Results flagged for a closer look

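For 20 synthetase genes after BRD8 depletion and 20 after TIP60 depletion, the response differed between the lines by the interaction test. Of all 17411 genes, 34.4% and 31.2% were called in these tests, with all-gene medians of 0.10 and 0.06. Values are SW480 minus HCT116 on the log2 scale, with edgeR's adjusted p. For BRD8 they were 0.82 at AARS1 (adjusted p = 1.92e-10), 0.80 at CARS1 (4.76e-11), 0.74 at MARS1 (4.18e-13), -0.54 at FARS2 (0.00224), -0.54 at YARS2 (5.71e-05) and -0.49 at MARS2 (0.000788). For TIP60 they were 1.00 at SARS1 (6.56e-13), 0.87 at CARS1 (1.25e-11), 0.83 at AARS1 (2.02e-10), -0.65 at RARS1 (8.94e-10), -0.63 at YARS2 (4.63e-06) and -0.57 at FARSA (2.68e-06). Line, culture medium and sequencing depth cannot be told apart in these differences. The BRD8 values of FARS2, MARS2 and YARS2 and the TIP60 value of YARS2 were not called on TPM (adjusted p 0.0601, 0.0914, 0.0606 and 0.0611).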

How the results depend on the processing

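Of 95 named gene results, 76 kept their direction and call in every alternative, and over all alternatives 59 of 1669 values lost the call and 2 reversed. Both reversals were LARS1 in SW480 BRD8 depletion on log2 TPM (0.0130 with a pseudocount of 1 and 0.0131 with 0.1). With limma on TPM, at either pseudocount, the mitochondrial genes called were 3 in HCT116 BRD8, 6 in HCT116 TIP60, 7 in SW480 BRD8 and 5 in SW480 TIP60 depletion, and the cytosolic genes in SW480 TIP60 depletion were 7. The cause was not tested. Leaving out a library gave 3 to 5 mitochondrial genes for HCT116 BRD8, the lowest without HCT116 control replicate 1. Over the alternatives 300 counts of called genes stayed within 1.5 times the reported ones and 11 did not. Among all genes called, the share that was higher went from 47.9% to 85.2% for SW480 BRD8 and from 48.6% to 82.5% for SW480 TIP60 on TPM, from 48.3% to 27.9% for siTIP60-11 against siTIP60-2 in SW480, and from 47.1% to 37.1% between controls. For the BRD8 interaction it was 63.7% against 45.4% to 82.7%, and for TIP60 57.9% against 46.1% to 81.5%, over the alternatives. Same-numbered replicates correlated by -0.0514 to 0.325 in HCT116 (11 of 15 libraries best with their own number) and by -0.278 to 0.258 in SW480 (3 of 15), against medians of -0.0732 and 0.00656 for other numbers. The HCT116 median for the same number was 0.117, but not every pair was above 0.1 in either line, so the numbers were not taken to pair the samples. With the replicate number as a block, TARS2 in SW480 BRD8 depletion (0.39, adjusted p = 0.0514) was the named result that lost its call. SW480 libraries were shallower, and what depth did to the calls was not tested.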
